A study of Mus musculus with 12 samples.

Results

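The genes described here encode the MHC class II antigen presentation machinery, and they were followed in sorted mouse corticotrophs during and after prolonged glucocorticoid treatment. The 10 genes (*Cd74*, *H2-Aa*, *H2-Ab1*, *H2-Eb1*, *H2-DMa*, *H2-DMb1*, *H2-DMb2*, *H2-Oa*, *H2-Ob* and *Ciita*) were taken by symbol from the 55304 genes listed. They were chosen from this known gene family after results of these 12 libraries had been seen, and 5 of them (*Cd74*, *H2-Aa*, *H2-Ab1*, *H2-Eb1* and *H2-DMb1*) stood in the study's own list of changed genes. Their levels over the 4 groups are therefore a description, and no test of them is offered as evidence. All 10 passed the filter on low values, a value above 0.1 in at least 3 libraries, which 24736 genes passed in all. *H2-DMb2*, *H2-Oa* and *H2-Ob* passed it chiefly through the group in which they were highest, so counts and medians over the 10 genes lean towards that group.

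All mice were male, carried a *Pomc*-eGFP transgene on a C57Bl6/J background and were 8 weeks old at the start. The transgene puts green fluorescent protein under the *Pomc* promoter, and viable eGFP positive cells of the anterior pituitary were collected by fluorescence-activated cell sorting with a gate set on wild-type pituitaries. Group A (control) drank standard water. Group B (DEX) received the synthetic glucocorticoid dexamethasone at 2.5 µg/ml in the drinking water for 4 weeks. Groups C and D had the same 4 weeks of DEX followed by 1 week (7 days) or 4 weeks (28 days) of recovery without it. Each group had 3 pools of 2 to 3 pituitaries, and the replicates are pools, not mice. The libraries held 7719894 to 12848078 reads on genes. Values are normalised counts, that is CPM after scaling for library composition, in which 1 read was worth 0.0787 to 0.127. *Pomc*, the hormone precursor gene of corticotrophs, had 34562 to 74260 normalised counts in the control pools and 4241 to 8521 in the DEX pools. It had 43612 to 284740 at 1 week and 48189 to 80216 at 4 weeks. *Tbx19*, a transcription factor of this lineage, had 218 to 459 in control and 498 to 1490 with DEX, all DEX pools above control. It had 39.5 to 385 at 1 week and 94.4 to 188 at 4 weeks, the latter below control in every pool. The paper also reports that DEX shifted the sorted cells towards lower eGFP. In its account the shift was most apparent in group D, after the longer recovery.

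MHC class II molecules present peptides from the endocytic pathway to CD4+ T cells, and in most tissues they are made by dendritic cells, macrophages and B cells. An α and a β chain assemble in the endoplasmic reticulum with the invariant chain CD74, which fills the groove and guides the complex to endosomes, where cathepsins degrade it. The H2-DM heterodimer then exchanges the remaining fragment for a peptide, H2-DO restrains H2-DM, and the coactivator CIITA, docked on promoters by RFX and NF-Y, switches the whole set of genes on. Glucocorticoids are known to lower class II expression in antigen presenting cells.

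In the GRCm38 genome most of the genes are neighbours. *H2-Oa* (chr17:34092340-34095234), *H2-DMa* (chr17:34119541-34139101), *H2-DMb2* (chr17:34143307-34151555), *H2-DMb1* (chr17:34153072-34160230), *H2-Ob* (chr17:34238903-34254414), *H2-Ab1* (chr17:34257689-34269419), *H2-Aa* (chr17:34282744-34287823, minus strand) and *H2-Eb1* (chr17:34305867-34316674) stand together in the class II region of chromosome 17. *Ciita* is at chr16:10480059-10528418. RefSeq promoter windows on GRCm38.p6, from 250 bases before to 50 bases after the annotated start, were matched for 7 of the 10 genes. The stretches below are shown because they hold the Y box letters, in most cases with the X box letters ahead of them, by which this gene family is known. Each runs from 135 to 36 bases before the start, 5′ to 3′ on the strand of the gene, with the letters GATTGG (the Y box, the reverse of a CCAAT box, bound by NF-Y) and the letters GNAAC (chosen as a core of the X box, bound by RFX) in capitals where GNAAC began 25 to 40 bases before GATTGG. Both motifs were chosen after the promoters had been seen.
H2-Aa (chr17:34287859-34287958, minus strand): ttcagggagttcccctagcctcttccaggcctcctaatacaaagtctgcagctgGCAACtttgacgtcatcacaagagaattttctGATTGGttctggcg
H2-Eb1 (chr17:34305732-34305831, plus strand): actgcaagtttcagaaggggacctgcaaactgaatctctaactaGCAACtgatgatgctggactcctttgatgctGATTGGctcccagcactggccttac
H2-DMb1 (chr17:34153056-34153155, plus strand): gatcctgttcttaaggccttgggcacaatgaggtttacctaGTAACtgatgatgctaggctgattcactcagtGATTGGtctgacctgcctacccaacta
H2-DMb2 (chr17:34145114-34145213, plus strand): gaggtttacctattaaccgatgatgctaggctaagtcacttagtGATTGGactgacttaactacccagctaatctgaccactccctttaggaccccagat
H2-Oa (chr17:34092244-34092343, plus strand): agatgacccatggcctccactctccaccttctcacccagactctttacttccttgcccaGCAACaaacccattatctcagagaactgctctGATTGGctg
H2-Ob (chr17:34238770-34238869, plus strand): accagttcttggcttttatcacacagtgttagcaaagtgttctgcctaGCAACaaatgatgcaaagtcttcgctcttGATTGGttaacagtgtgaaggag

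GATTGG lay on the sense strand within 100 bases before the start in 6 of the 7 genes, and GNAAC stood ahead of it in 5. The distance between the first bases of both motifs was 32 bases in *H2-Aa*, *H2-DMb1* and *H2-Oa*, 31 in *H2-Eb1* and 29 in *H2-Ob*. *H2-DMb2* held GATTGG without GNAAC at that distance, and the GATTGG of *H2-Eb1* was followed by another on the opposite strand. Of 32851 promoter windows of the same length, 8.71% held GATTGG on the sense strand and 16.1% on either strand, while 0.457% held the pair on the sense strand and 0.922% on either. *H2-DMa* had windows at its starts chr17:34122832 and chr17:34125518. The first window held no GATTGG, and the second held it 199 bases before the start without the GNAAC partner. A match describes letters in a window and no factor was measured at these promoters.

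**Figure D1:**
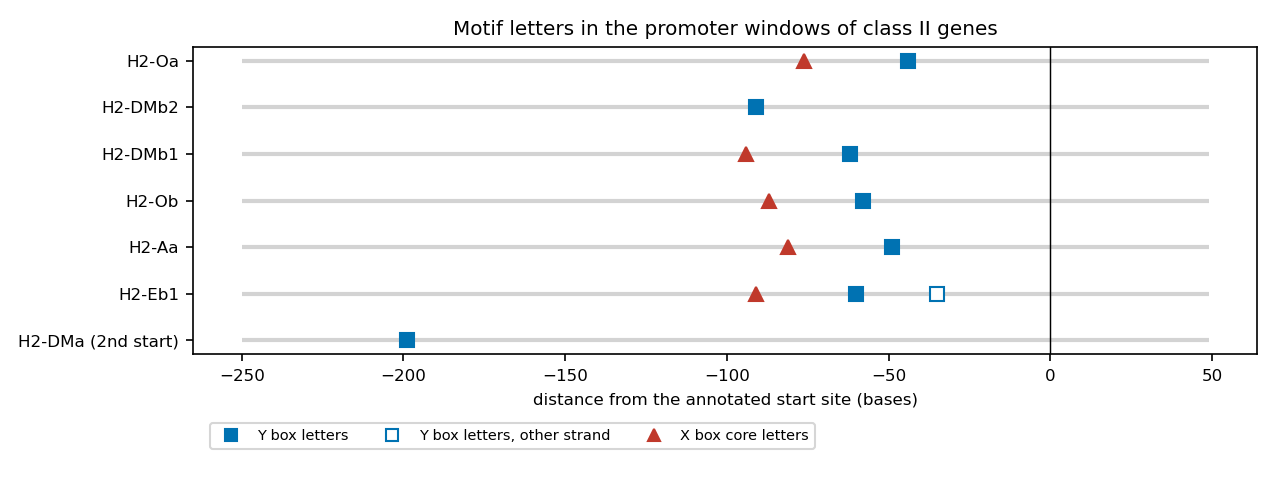
Position of the motif letters in RefSeq promoter windows, with the distance in bases from the annotated start on the horizontal axis and 1 gene per row. Filled squares mark the Y box letters on the sense strand, the open square the same letters on the opposite strand of *H2-Eb1*, and triangles the X box core letters, which preceded the square by 29 to 32 bases in 5 genes.

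*Cd74* and the classical chains *H2-Aa*, *H2-Ab1* and *H2-Eb1* were lowest in the 3 DEX pools and did not overlap with control. Mean levels were 5.2-fold (*H2-Eb1*) to 9.47-fold (*Cd74*) lower with DEX than in control. After withdrawal their means were above control at 1 week and highest at 4 weeks, where the pools were widely spread.

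*Cd74*, the invariant chain gene at chr18:60803848-60812652 in GRCm38, had 29.6, 42.8 and 104 normalised counts in the control pools and 3.48, 10.4 and 4.71 with DEX. It reached 59.4, 89.5 and 69.2 after 1 week of recovery and 70.4, 141 and 155 after 4 weeks. All DEX pools lay under all other pools, and both recovery groups overlapped with control. The means were 58.6 ± 39.4 in control, 6.19 ± 3.68 with DEX, 72.7 ± 15.3 after 1 week and 122 ± 45.2 after 4 weeks (SD, n = 3). Against control, the log2 fold change of the normalised count plus 0.1 was -3.17 with DEX, 0.50 at 1 week and 1.18 at 4 weeks, with an SE of 0.46.

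*H2-Ab1*, the β chain gene of the I-A molecule, had 9.76, 24.97 and 34.9 normalised counts in control and 1.66, 6.05 and 1.35 with DEX. It had 22.4, 62.1 and 19.8 at 1 week and 29.7, 92.8 and 96.3 at 4 weeks. Pool 2 stood above the others both with DEX and at 1 week, and pool 1 at 4 weeks lay inside the control range. The log2 fold change was -3.04 with DEX, 0.56 at 1 week and 1.65 at 4 weeks (SE 0.62).

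*H2-Aa*, the α chain gene of the same molecule, had 5.74, 11.1 and 20.9 normalised counts in control and 0.994, 4.09 and 1.46 with DEX, the lowest from 12 reads. It had 18.0, 27.9 and 24.8 at 1 week and 16.7, 51.7 and 49.99 at 4 weeks. As with *H2-Ab1*, the DEX pools lay under control, and the recovery pools overlapped with it. Its log2 fold change was -2.53 with DEX, 1.07 at 1 week and 1.66 at 4 weeks (SE 0.55).

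*H2-Eb1*, the β chain gene of the I-E molecule, had 5.43, 6.83 and 17.9 normalised counts in control and 1.16, 1.96 and 2.69 with DEX. It had 9.51, 20.3 and 13.3 at 1 week and 9.70, 25.1 and 30.7 at 4 weeks. All DEX pools lay under control here too, with a log2 fold change of -2.19, against 0.64 at 1 week and 1.15 at 4 weeks (SE 0.52). Its α chain partner is listed as the pseudogene *H2-Ea-ps*, which had no read in any library. C57Bl6/J mice are known to lack a working *H2-Ea*, so no surface I-E is formed in this strain.

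**Figure D2:**
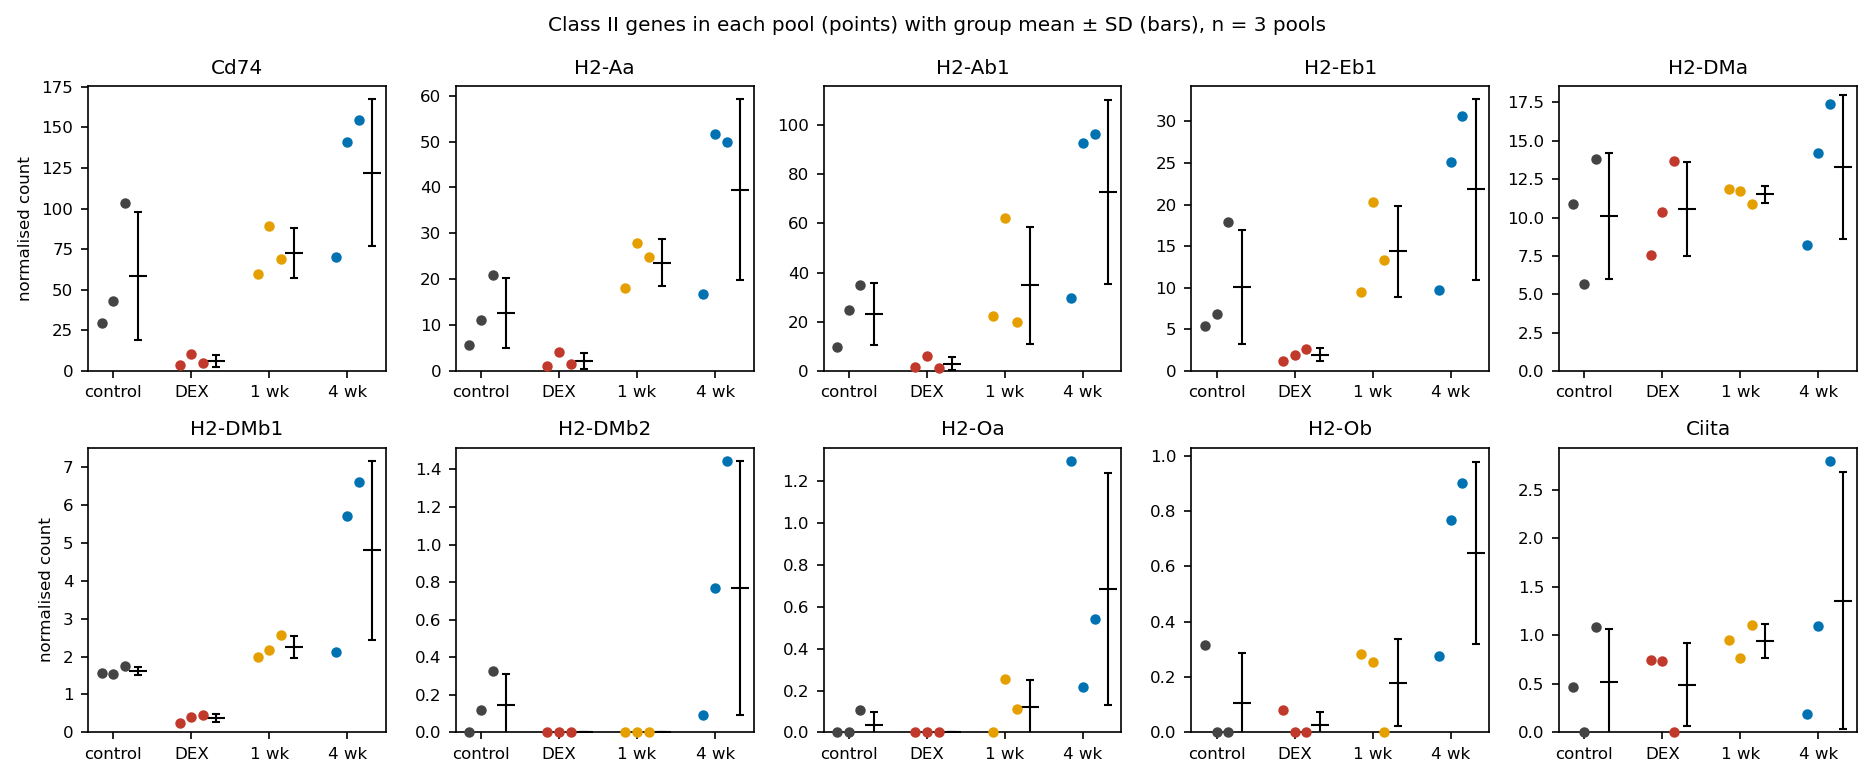
Normalised count of each of the 10 class II genes on a linear vertical axis that starts at 0, by group, with 1 point per pool and a bar for the mean ± SD (n = 3 pools). The DEX points lie under all other points for *Cd74*, *H2-Aa*, *H2-Ab1*, *H2-Eb1* and *H2-DMb1*, while those of *H2-DMa*, from 7.54 to 13.7, sit among the other groups.

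The sum of *Cd74*, *H2-Aa*, *H2-Ab1* and *H2-Eb1* ranged from 7.29 in a DEX pool to 332 in a pool at 4 weeks, a span of 45.5-fold, and the genes kept similar proportions within the pools. The ratio of *Cd74* to the 3 chains together stayed between 0.812 and 1.41 in all 12 pools. It was 0.857 to 0.913 with DEX and 0.997 to 1.41 in control. The ratio of *H2-Ab1* to *H2-Aa* ranged from 0.798 to 2.26. The ratio of *H2-Eb1* to *H2-Ab1* was less even, at 0.27 to 2.0, with the highest value in DEX pool 3 from 24 and 12 reads.

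Expressed per kb of exon, *Cd74* led in every group, at 34.9 ± 23.5 normalised counts per kb in control, 3.69 ± 2.19 with DEX, 43.3 ± 9.14 after 1 week and 72.7 ± 26.9 after 4 weeks (SD, n = 3). Its pools did not overlap with those of the next gene, *H2-Ab1*, outside the DEX group. In control, *H2-Ab1* (9.04), *H2-Eb1* (5.18), *H2-Aa* (3.31) and *H2-DMa* (2.93) followed, each overlapping with its neighbour, and *H2-DMb1* stood lower at 0.961. With DEX the order changed, because *H2-DMa* came next to *Cd74* at 3.06 per kb, ahead of *H2-Ab1* at 1.18. The exon length counted every annotated transcript of a gene, which lowers the per kb level of genes with many long isoforms, among them *H2-Aa* and *H2-DMa*.

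**Figure D3:**
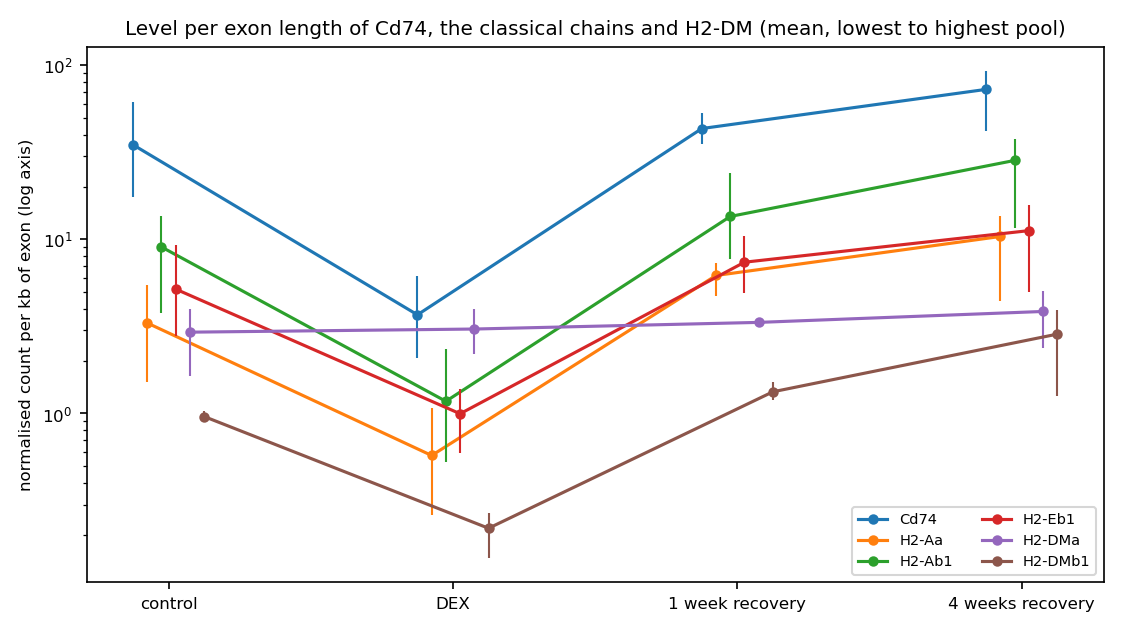
Level per kb of exon on a log axis, in each group, for *Cd74*, the classical chains and the H2-DM genes, with a point for the mean of 3 pools and a line from the lowest to the highest pool. *Cd74* has a mean of 34.9 per kb in control and 3.69 with DEX, *H2-DMa* 2.93 and 3.06, and the ranges of these genes overlap with DEX alone.

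The H2-DM chains, which together edit the peptides bound to class II, differed from each other. *H2-DMb1* had 1.57, 1.53 and 1.74 normalised counts in control and 0.248, 0.409 and 0.449 with DEX, the latter from 3 to 5 reads per pool. It had 1.996, 2.17 and 2.56 at 1 week and 2.12, 5.69 and 6.59 at 4 weeks, so that both recovery groups lay above control in every pool. Its log2 fold change was -1.90 with DEX, 0.44 at 1 week and 1.37 at 4 weeks (SE 0.53).

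*H2-DMa* had 10.9, 5.65 and 13.8 normalised counts in control, 7.54, 10.4 and 13.7 with DEX, 11.9, 11.7 and 10.9 at 1 week and 8.22, 14.2 and 17.4 at 4 weeks. The 4 groups overlapped throughout, and the log2 fold change was 0.11 with DEX, 0.28 at 1 week and 0.42 at 4 weeks (SE 0.38). Within a pool, *H2-DMb1* amounted to 12.6 to 27.1% of *H2-DMa* in control, 3.28 to 3.94% with DEX, 16.8 to 23.5% at 1 week and 25.8 to 40% at 4 weeks, and the DEX range lay apart from all others. The ratio of *H2-DMa* to *Cd74* was 1.00 to 2.90 with DEX and 0.101 to 0.367 in the other pools. Of the exonic bases of *H2-DMa*, 10.4% are shared with *Brd2* on the opposite strand, which had 134 to 230 normalised counts. Because the library kit does not mark strand, reads of both genes cannot be told apart there, and the share of *Brd2* reads in the *H2-DMa* values was not tested.

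*H2-DMb2*, a paralogue of *H2-DMb1*, had 0, 1 and 3 reads in control, no read in any DEX or 1 week pool, and 1, 7 and 16 reads at 4 weeks. The level in group D was at least 2.51-fold higher on average than in control and at least 2.77-fold higher than with DEX, each taken against a limit of 3 reads per library. The transcripts of the paralogues were 76.3% identical. Of the 50-base windows in the *H2-DMb1* transcript, 27.2% occur unchanged in that of *H2-DMb2*, so the division of reads between the 2 genes is uncertain.

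The H2-DO genes, which restrain H2-DM chiefly in B cells and some dendritic cells, were near the limit of detection. *H2-Oa* had 0, 0 and 1 reads in control, none with DEX, 0, 2 and 1 at 1 week and 14, 2 and 6 at 4 weeks. *H2-Ob* had 4, 0 and 0 reads in control, 1, 0 and 0 with DEX, 3, 2 and 0 at 1 week and 3, 7 and 10 at 4 weeks. Both were highest on average at 4 weeks, with different pools on top. In group D *H2-Oa* was at least 2.24-fold higher on average than in control, and that of *H2-Ob* at least 2.34-fold higher than with DEX. *H2-Oa* shares 22.8% of its exonic bases with *BC051537* on the opposite strand, which had at most 0.722 normalised counts.

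*Ciita*, the coactivator of the family, had 6, 0 and 10 reads in control, 9, 9 and 0 with DEX, 10, 6 and 10 at 1 week and 2, 10 and 31 at 4 weeks. These are 0.520 ± 0.545, 0.494 ± 0.428, 0.942 ± 0.174 and 1.36 ± 1.33 normalised counts (SD, n = 3), and the control and DEX pools overlapped. The log2 fold change was 0.02 with DEX, 1.34 at 1 week and 1.29 at 4 weeks, with an SE of 1.05, so that a difference of several fold was not detectable at this depth. *Ciita* shares 3.45% of its exonic bases with *Dexi* on the opposite strand, at 2.29 to 46.4 normalised counts.

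Over all 10 genes, limma's F test across the 4 groups with Benjamini-Hochberg adjustment called *Cd74*, *H2-Aa*, *H2-Ab1*, *H2-Eb1* and *H2-DMb1* at an adjusted p below 0.05, against 0.315% of all genes tested. Since the genes were chosen with this result known, nothing is read from that count. Leaving out DEX pool 1 or DEX pool 3 left 1 of them, *Cd74*. Without pool 2 of the 4 week group 2 remained past the threshold, and without control pool 2, DEX pool 2 or pool 3 of the 4 week group 3 did. In the DEX against control contrast 1 gene, *Cd74*, was called lower, against 0.0121% of all genes, and none was called without DEX pool 1 or 3 or control pool 2 or 3. This contrast called 3 genes without DEX pool 2 and 2 genes without pool 2 or pool 3 of the 1 week group. DESeq2 on the recovered reads called 4 lower, with *H2-Aa*, *H2-Ab1* and *H2-Eb1* added, against 0.234% of all genes. All 3 DEX pools lay below all 3 control pools in 5 of the 10 genes, as they did in 6.23% of all genes tested.

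The median log2 fold change of the 10 genes against control was -1.48 with DEX, 0.57 at 1 week and 1.48 at 4 weeks, while the median over all genes tested was -0.022, 0.0022 and 0. Leaving out genes with both groups at or under 3 reads per library, and taking the others at their bound, gave medians of -2.19 over 7 genes, 0.56 over 7 genes and 1.31 over 10 genes.

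**Figure D4:**
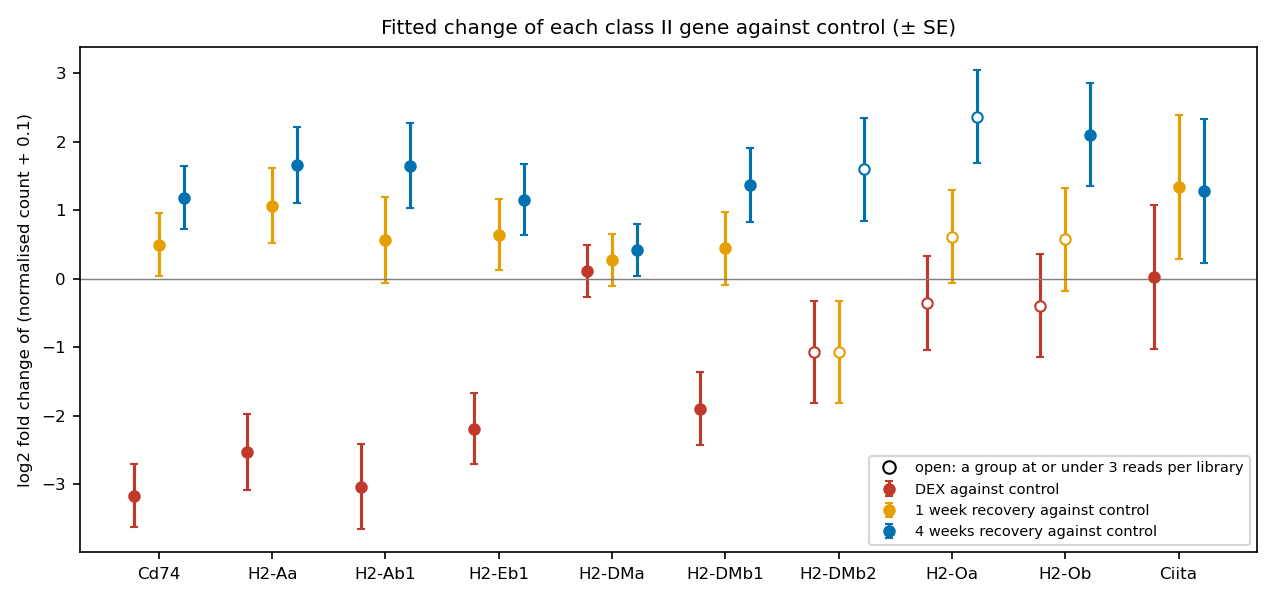
Fitted log2 fold change of the normalised count plus 0.1 against control for each gene, with bars for the SE, for DEX, 1 week and 4 weeks of recovery. Open symbols mark genes with a group at or under 3 reads per library, whose fitted value depends on the added 0.1. *Cd74* and the classical chains lie between -2.19 and -3.17 with DEX and between 1.15 and 1.66 at 4 weeks, while *H2-DMa* and *Ciita* stay near 0 with DEX.

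Compared with DEX, 4 genes (*Cd74*, *H2-Aa*, *H2-Ab1* and *H2-Eb1*) were called higher by limma at 1 week, against 0.105% of all genes, and the same genes together with *H2-DMb1* at 4 weeks, against 0.412%. At 1 week, 1 gene was called without DEX pool 1 or 3 and 2 genes without pool 2 of the recovery group. At 4 weeks, 3 genes were called without DEX pool 1 or without pool 2 or 3 of the recovery group. The pools lay above all DEX pools in 6 genes at 1 week and in 8 at 4 weeks, beside 6.97% and 9.8% of all genes. *Cd74* was 11.7-fold higher at 1 week than with DEX and 19.7-fold higher at 4 weeks, and *H2-Ab1* 11.5-fold and 24.2-fold. These comparisons share the DEX pools with the contrast of DEX against control, so a low DEX group enters all of them.

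Compared with control, no class II gene was called by limma, edgeR or DESeq2 at 1 week (0.0% of all genes by limma) or at 4 weeks (0.0%). The paper sorts *Cd74*, the classical chains and *H2-DMb1* as down with DEX, unchanged at 1 week and up at 4 weeks. It sorted genes past a test over all 4 groups by their direction against control, a criterion unlike the contrasts used here. At an unadjusted p below 0.05, limma counted 0 of the 10 at 1 week, beside 3.79% of all genes, and 8 higher at 4 weeks, beside 3.43%. The latter count includes *H2-DMb2*, *H2-Oa* and *H2-Ob*, which passed the filter on low values chiefly through the group in which they were highest. It was 2 without pool 3 of the 4 week group, 3 without its pool 2 or control pool 1 and 4 without control pool 2, while the count at 1 week was 3 without control pool 3 and 1 without DEX pool 2. All 3 pools lay above all control pools in 1 gene, *H2-DMb1*, at 1 week, beside 3.47% of all genes, and in 2, *H2-DMb1* and *H2-Oa*, at 4 weeks, beside 6.77%. Pool 1 at 4 weeks was the lowest of its group for *Cd74*, the classical chains and the H2-DM genes, and the highest for *H2-Oa*.

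Genes that act on or beside class II were examined as 4 lists with 48 genes, none of them among the 10. Of the 46 tested, limma's F test called 0, edgeR's quasi-likelihood test 0, beside 0.639% of all genes, and DESeq2 3 (*Ctss*, *Ctsh* and *Cd63*), beside 2.97%. With limma, 11 had an unadjusted p below 0.05, beside 9.21% of all genes. Their median log2 fold change against control was -0.12 with DEX, 0.11 at 1 week and 0.13 at 4 weeks.

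Among 17 regulators of class II transcription, no gene was called in any contrast. The most abundant was *Irf1*, an interferon response factor, with 200 to 438 normalised counts in control, 319 to 551 with DEX, 88.9 to 375 at 1 week and 175 to 338 at 4 weeks. *Rfxank*, a subunit of RFX, had 27.9 to 36.3 in control and 27.3 to 45.6 with DEX, and *Nfyb*, a subunit of NF-Y, 33.7 to 59.0 and 30.1 to 46.8. The log2 fold change of *Rfxank* with DEX was 0.06 ± 0.31 and that of *Nfyb* -0.33 ± 0.31 (SE). *Jak1*, a kinase of interferon receptors, had a value of 0.06 ± 0.28. The ranges of all 4 genes overlapped between control and DEX. In the whole list, all DEX pools lay below control in 1 gene, beside 6.23% of all genes, and above it in 2. For that higher direction no share over all genes was counted, so nothing is read from the 2. The 2 were *Rfx5*, at 18.2 to 34.1 in control and 37.2 to 42.3 with DEX, and *Ifngr1*, at 19.4 to 23.8 and 26.7 to 29.6. The lower gene was *Socs1*, at 10.9 to 15.5 and 8.41 to 10.1. These genes were named because their ranges did not overlap.

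Among 18 genes of antigen processing and trafficking, none passed limma's F test. *Ctsb*, *Cst3*, *Lamp1* and *Cd63*, the most abundant, encode a lysosomal protease, its inhibitor cystatin C and a pair of lysosomal membrane proteins. *Cd63* had 354 to 455 normalised counts in control, 197 to 272 with DEX, 434 to 685 at 1 week and 423 to 504 at 4 weeks, with an adjusted p of 0.148 in limma's F test. *Ctss*, the cathepsin that trims CD74 in antigen presenting cells, was chosen after its values were seen. It had 4.88, 4.24 and 4.68 in control, 2.82, 4.33 and 2.80 with DEX, 8.36, 13.6 and 6.56 at 1 week and 6.10, 14.1 and 17.7 at 4 weeks, with an adjusted p of 0.152 in limma's F test. For *Ctss* the log2 fold change with DEX was -0.49, and all recovery pools lay above control.

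Among 11 genes of costimulation and CD74 ligands, 10 were tested and none was called by limma. *Mif*, the cytokine that binds CD74, had 72.6 to 130 normalised counts in control and 57.1 to 84.8 with DEX, *Ddt*, its homologue, 4.48 to 14.8 and 7.04 to 10.3, and the receptor partner *Cd44* 2.50 to 5.18 and 3.48 to 6.05. *Cd274*, the ligand of PD-1, had 8.37 to 24.1 and 14.9 to 23.9. *Cd86*, a costimulatory ligand chosen after its values were seen, had 0.236, 1.18 and 0.652 in control and 0.166, 0 and 0 with DEX. It had 0.380, 1.40 and 0.111 at 1 week, where pool 3 lay inside the DEX range, and 0.832, 1.97 and 0.902 at 4 weeks. The control values came from 3, 10 and 6 reads and the DEX values from 2, 0 and 0. All DEX pools lay below control in 2 of the 10 tested, *Cd86* and *Icosl*, beside 6.23% of all genes. They lay above control in 1, *Cd80*, named for going the other way, and no share over all genes was counted for that direction. *Cd80*, also a costimulatory ligand, had 0 to 0.217 in control, from 0 to 2 reads, and 0.245 to 0.449 with DEX, from 3 to 4 reads. The other class II chain listed, *H2-Eb2*, reached at most 0.554, in a pool at 4 weeks.

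The genes whose pattern was most like the mean log2 level of *Cd74*, *H2-Aa*, *H2-Ab1* and *H2-Eb1* over the 12 libraries were ranked by Pearson's r among 15750 genes. Among the leading genes were *Psmb8* (0.963), *Pcolce* (0.953), *Gm4366* (0.948), *Angpt2* (0.936), *Trf* (0.936), *Bst2* (0.932) and *Rtn4rl1* (0.928). *Psmb8*, an interferon-inducible subunit of the immunoproteasome that lies in the class II region, had 30.0, 27.3 and 34.4 normalised counts in control, 11.6, 14.1 and 15.03 with DEX, 32.03, 41.2 and 31.6 at 1 week and 32.5, 43.2 and 59.7 at 4 weeks. *Bst2*, an interferon-inducible antiviral protein gene, had 3.62 to 4.48 in control, 1.66 to 2.13 with DEX and 6.65 to 9.29 at 4 weeks. Because these genes were selected for their likeness, no test is given. Over the 9 libraries without DEX, r was 0.865 for *Psmb8*, 0.967 for *Gm4366*, 0.908 for *Pcolce* and 0.602 for *Rtn4rl1*. Among the 10 class II genes, r to the mean of the other leading genes was 0.961 to 0.989 for *Cd74* and the classical chains, 0.952 for *H2-DMb1*, 0.648 for *H2-DMb2*, 0.637 for *H2-Oa*, 0.552 for *H2-Ob*, 0.476 for *Ciita* and 0.39 for *H2-DMa*. Without DEX, *H2-DMa* had an r of 0.649. The libraries share the low DEX group, which weighs on all of these values.

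The sorted cells held transcripts of other cell types that make class II. In bulk RNA, fewer cells of a type and less RNA per cell cannot be told apart. The 16 macrophage markers summed to 32.9 to 51.8 normalised counts in control, 28.7 to 41.6 with DEX, 57.0 to 100.2 at 1 week and 47.1 to 110 at 4 weeks. None of them passed limma's F test, while 8 had an unadjusted p below 0.05 in it, beside 9.21% of all genes. The recovery pools lay above all DEX pools in 8 markers at 1 week and in 8 at 4 weeks, beside 6.97% and 9.8% of all genes. *Lyz2* and *Csf1r*, the most abundant, had 6.95 to 11.96 and 8.70 to 10.7 in control and 9.03 to 14.9 and 9.36 to 12.4 with DEX. The other 14 markers, a split not set beforehand, together summed to 16.5 to 31.1 in control and 10.3 to 14.2 with DEX, without overlap. The median log2 fold change of the whole list with DEX was -0.62, beside -0.022 over all genes. All DEX pools lay below all control pools in 3 of the 16, *C1qa*, *Cx3cr1* and *Cd68*, beside 6.23% of all genes. Their means were 2.37, 3.24 and 2.63 in control and 1.06, 1.66 and 1.34 with DEX. *Mrc1* and *Mertk*, named for going the other way, had means of 0.260 and 0.627 in control and 0.450 and 0.969 with DEX. The ratio of the class II sum of *Cd74* and the 3 chains to the macrophage sum was 1.27 to 3.42 in control, 0.245 to 0.604 with DEX, 1.70 to 1.99 at 1 week and 2.68 to 3.27 at 4 weeks. Against the other 14 markers alone the ratio was 2.76 to 5.70 in control, 0.710 to 1.71 with DEX and 3.202 to 6.37 after withdrawal. Set against the complement genes *C1qa*, *C1qb* and *C1qc*, the ratio was 6.83 to 13.4 in control, 1.75 to 4.37 with DEX and 7.00 to 18.5 after withdrawal. These ratios share a numerator already known to be low with DEX, so their low values there are no separate evidence. The part of macrophages in the class II levels was not tested.

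The 10 dendritic cell markers summed to 6.84 to 13.9 in control, 5.07 to 6.38 with DEX, 8.67 to 11.0 at 1 week and 16.5 to 23.4 at 4 weeks. *Cd83*, a marker of mature dendritic cells, had 1.73, 3.53 and 2.94 in control, 0.248, 0.572 and 0.897 with DEX, 4.85, 4.59 and 1.00 at 1 week and 4.34, 8.98 and 7.31 at 4 weeks. It rose from DEX to 4 weeks by a log2 fold change of 3.44 ± 0.63 (SE, adjusted p = 0.0214 by limma). *Cd83* was the only gene of the 10 called in that contrast, beside 0.412% of all genes called higher. *Zbtb46*, a lineage factor of dendritic cells, had 1.63 to 4.01 in control, 2.45 to 4.31 with DEX and 2.35 to 4.62 at 4 weeks. All DEX pools lay below control in 1 of the 10, *Cd83*, beside 6.23% of all genes tested. They lay above control in 1, *Xcr1*, named for going the other way, and no share over all genes was counted for that direction. *Xcr1* had 0.353 to 0.551 in control, from 3 to 7 reads, and 0.654 to 1.08 with DEX, from 8 to 13 reads. One of the 10, *Batf3*, had at most 3 reads in any library. The part of dendritic cells in the class II levels was not tested.

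Most defining markers of lymphocytes were near 0, and no gene of either lymphocyte list was called. Of 9 B and plasma cell markers 4 had at most 3 reads in every library, *Ms4a1* and *Pax5* among them, and of 8 T and NK cell markers 5 did, including *Cd3e*, *Cd3d*, *Cd3g* and *Cd8a*. *Cd79b*, a part of the B cell receptor, had 3.11 to 9.32 normalised counts and *Lck*, a T cell kinase, 5.47 to 12.4. Pool 1 at 1 week stood apart with 43.4 normalised counts of *Igkc*, the immunoglobulin κ light chain, against at most 1.02 elsewhere, and its *Cd74* value of 59.4 was the lowest of its group.

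Endothelial cells, stromal cells and stem or folliculostellate cells were examined in the same way. The 8 endothelial markers summed to 7.55 to 71.8 in control, 5.63 to 10.9 with DEX, 24.9 to 162 at 1 week and 75.4 to 139 at 4 weeks. *Emcn*, an endothelial sialomucin gene, had 1.02, 1.41 and 3.91 in control, 0.0828, 0.327 and 0 with DEX, 0.76, 2.17 and 15.8 at 1 week and 10.2, 11.2 and 6.77 at 4 weeks, and it passed limma's F test (adjusted p = 0.042). *Emcn*, *Plvap* and *Tek* rose from DEX to 4 weeks by log2 fold changes of 5.54, 4.70 and 5.29 with limma's adjusted p of 0.00902, 0.029 and 0.029. These were 3 of the 8 markers, beside 0.412% of all genes. With DEX, *Emcn* and *Tek* had 0 to 4 reads per pool, so the size of their change depends on the added 0.1. The ratio of the class II sum to *Plvap*, the gene of fenestrated endothelium, was 3.25 to 5.50 with DEX, inside the range of 1.37 to 27.0 in the other pools. The 7 fibroblast and pericyte markers summed to 94.8 to 155 in control, 77.5 to 118 with DEX, 84.9 to 225 at 1 week and 170 to 272 at 4 weeks, and the 8 stem and folliculostellate markers to 173 to 437, 419 to 435, 224 to 361 and 474 to 602. *Col1a2*, a collagen gene, had 91.9 to 130 in control and 75.9 to 114 with DEX, and *Dcn*, a matrix proteoglycan gene, 0.0787 to 22.5 and 0.248 to 5.72. *Cyp2f2* and *Lcn2* of the folliculostellate list had 88.6 to 231 and 19.0 to 91.1 in control and 261 to 270 and 80.0 to 96.7 with DEX. *Sox9* and *Sox2* of that list, named for going the other way, had means of 26.4 and 5.17 in control and 15.7 and 3.38 with DEX. Both overlapped between these groups. The median log2 fold change of that list with DEX was 0.0126, beside -0.022 over all genes. No gene of the fibroblast and pericyte list, the stem and folliculostellate list or the 6 corticotroph markers was called by limma's F test. The corticotroph marker *Pomc*, whose DEX pools all lay below control, is in the paper's own list of changed genes. The part of all these cells in the class II levels was not tested.

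**Figure D5:**
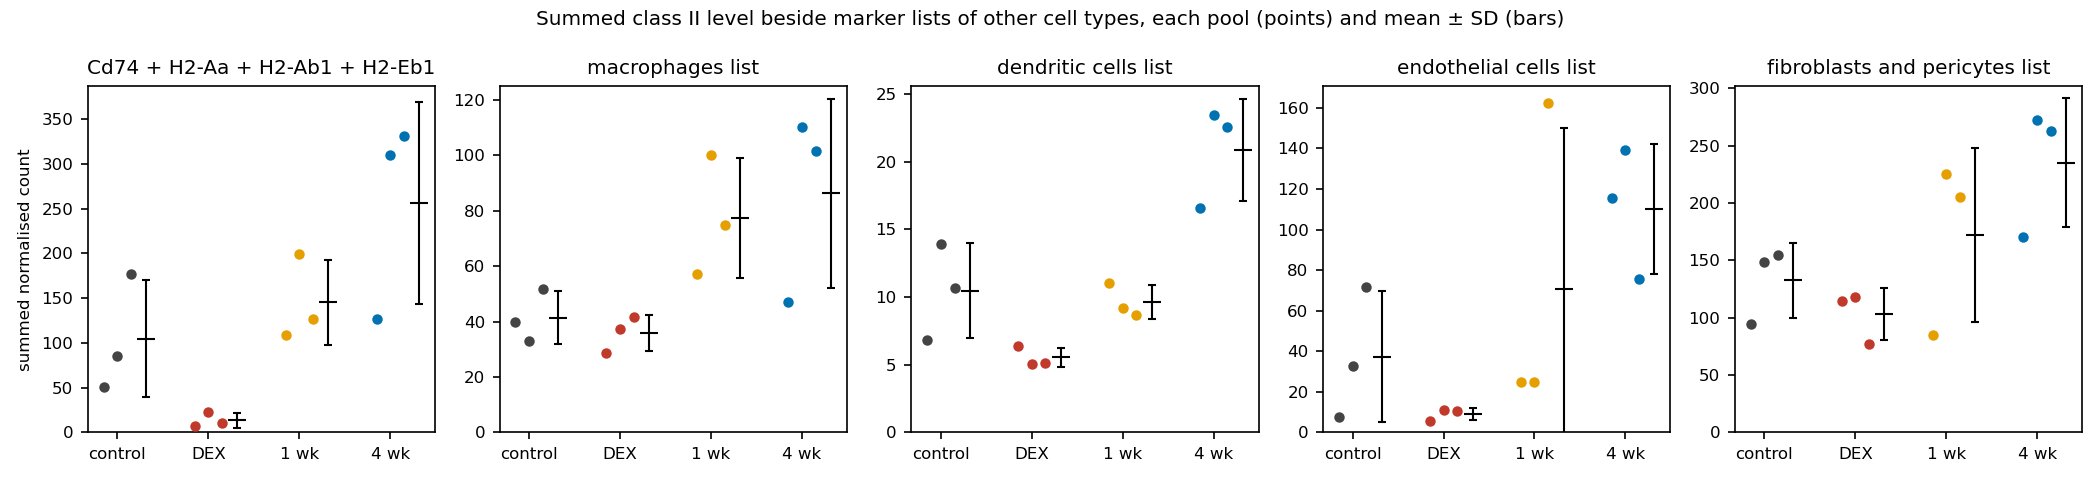
Sum of normalised counts of *Cd74*, *H2-Aa*, *H2-Ab1* and *H2-Eb1* (left panel) and of the macrophage, dendritic cell, endothelial, and fibroblast and pericyte marker lists, on linear axes from 0, with 1 point per pool and a bar for the mean ± SD (n = 3 pools). The class II sum is 7.29 to 22.5 with DEX, and the macrophage sum, at 28.7 to 41.6, overlaps with control there. The class II sum and the sums of all marker lists shown are highest on average at 4 weeks.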

How the data were processed

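RNA from 12 pools of sorted eGFP positive cells, 3 per group, was below the fluorometer's limit and was amplified with SMART-V4. Per the methods, the authors trimmed reads with Trim Galore 0.6.5, aligned them to GRCm38 (Ensembl 98) with STAR 2.7.1a, counted pairs of mapping quality 20 or more with featureCounts 2.0.0 in reverse stranded mode and used edgeR. What the authors deposited is a normalised signal for each gene, CPM of the TMM scaled library, and not plain CPM as first assumed. Whole reads were recovered for 100% of 271881 values above 0 (within 1e-06).

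The main test was limma 3.58.1 (R 4.3.3) on log2(value + 0.1), with trended variance, over 24736 genes above 0.1 in at least 3 libraries, all 12 libraries in 1 model, an F test over 3 contrasts against control and Benjamini-Hochberg adjustment. edgeR 4.0.16 and DESeq2 1.42.0 on the recovered reads, other pseudocounts, filters and scaling, a replicate block and each library left out were alternatives. The test was checked on simulated counts. Levels of at most 3 reads in every library of a group were treated as a floor, which covers counting error only. The pool number was not a block in the main fit. p-values measure the spread between pools.

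Exon lengths and overlaps came from GENCODE M21 (GRCm38). The genes and lists were chosen with earlier results of these data known. Other genes named are all past the F test, the 4 (pathway lists) or 2 (marker lists) of highest mean level, and the 8 most like the class II mean, unless said otherwise. Some genes these rules would name are not reported here.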

Additional observations from a re-analysis of the deposited data

How the results depend on the processing

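The count of class II genes past limma's F test, 5, was 3 with a pseudocount of 1, and 1 to 5 when each pool was left out in turn. The count called with DEX against control, 1, was 4 with DESeq2 and 4 with the replicate block, and 0 to 3 with a pool left out. The count at 4 weeks against DEX, 5, was 3 to 5 with a pool left out, and the counts against control at 1 and 4 weeks were 0 under every alternative run. Other pathway genes past the F test numbered 3 with DESeq2 and 0 otherwise. The median log2 fold change with DEX, -1.48, was -0.82 and -0.56 with pseudocounts of 0.5 and 1, -2.19 with a filter above 1, -2.25 with edgeR and -2.29 with DESeq2, and the median at 4 weeks, 1.48, was 0.85 with a pseudocount of 1. The cause of these shifts was not tested. The signs of *Cd74*, the classical chains and *H2-DMb1* held under all 20 alternatives in the 3 contrasts against control, while that of *Ciita* with DEX changed in 7. All genes called over the table numbered 78 with limma, 158 with edgeR and 734 with DESeq2. Same-numbered pools of different groups correlated at -0.294 to 0.397, over 0.1 in 7 of 18 pairs, and 8 of 12 libraries correlated best with their own number, a hint from the data only, so the block was not used as the main fit. It moved the count past the F test from 5 to 4. Amplification from very little RNA limits genes of a few reads.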
